A study of Mus musculus with 12 samples.

Results

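RNA of Kupffer cells, the resident macrophages of the liver, was followed through libraries that were made from sorted mouse hepatocytes. It was measured by 10 marker genes, taken as a fixed list of 49315 gene IDs in the files: Clec4f, Timd4, Vsig4, Cd5l, Marco, Cd163, Adgre1, C1qa, C1qb and C1qc. All 10 had a gene ID of their own, and all 10 passed the filter on low counts that left 14061 genes for testing. The cells came from 6 C57BL/6 mice, 3 young ones at 3 months of age and 3 aged ones at 27 months. Livers were perfused with collagenase, and hepatocytes were sorted by a reporter and by Hoechst staining of DNA into a diploid and a polyploid fraction, so that each mouse gave 2 libraries and each of 4 groups held 3. The reporter and its promoter were not given in the sources used here. No group carries a labelled treatment or mutation beyond strain, age, reporter and ploidy.

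Kupffer cells sit in the sinusoids, where they take up particles, microbes, worn cells and plasma proteins from the blood. Many hepatocytes become polyploid as the liver grows and ages, whereas most macrophages stay diploid. The markers cover 4 roles. Clec4f (a lectin that binds galactose-bearing glycans), Marco (a scavenger receptor for bacteria and polyanions), Cd163 (the receptor for haptoglobin-bound haemoglobin) and Timd4 (a receptor for phosphatidylserine on dying cells) are uptake receptors. Vsig4 is a complement receptor for C3 fragments, and C1qa, C1qb and C1qc encode the chains of C1q, which starts the classical complement pathway. Cd5l is a secreted protein of the scavenger receptor family that circulates with IgM, and Adgre1 is the F4/80 antigen of mature macrophages. Several of the markers, Adgre1 and the C1q genes among them, are also used by macrophages other than Kupffer cells.

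The 3 C1q genes lie next to each other on the reverse strand of chromosome 4 (GRCm38), C1qb at 136880129 to 136886187, C1qc at 136889804 to 136893065 and C1qa at 136895917 to 136898803. The gaps between them are 3616 and 2851 bases and the whole cluster spans 18675 bases. The other 7 genes lie apart: Marco on chromosome 1 (120474538 to 120505024), Cd5l on chromosome 3 (87357881 to 87371073), Clec4f (83644542 to 83656187) and Cd163 (124304656 to 124330527) on chromosome 6, Timd4 on chromosome 11 (46810800 to 46844332), Adgre1 on chromosome 17 (57358686 to 57483529) and Vsig4 on chromosome X (96247203 to 96293438). No exon of these genes overlapped an exon of another gene in the annotation used by the files, so the unknown strand setting of the counting does not mix them with an antisense neighbour listed there.

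The 250 bases before the start of 3 genes are printed because, in diploid libraries, their levels relative to C1q went in opposite directions with age: lower in aged mice for Marco and Timd4 and higher for Vsig4, as given with the ratios. Sequences are from RefSeq, build GRCm38.p6, on the strand of the gene, and capitals mark a match to a motif. Of the 10 genes, 8 had an entry. The windows are Marco at chr1:120505025-120505274 (reverse strand), Timd4 at chr11:46810549-46810798 (forward strand) and Vsig4 at chrX:96293439-96293688 (reverse strand).
Marco: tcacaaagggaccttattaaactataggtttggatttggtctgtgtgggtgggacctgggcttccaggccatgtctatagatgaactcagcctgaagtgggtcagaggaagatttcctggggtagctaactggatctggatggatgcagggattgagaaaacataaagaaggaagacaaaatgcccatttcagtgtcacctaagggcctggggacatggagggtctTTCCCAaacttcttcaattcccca
Timd4: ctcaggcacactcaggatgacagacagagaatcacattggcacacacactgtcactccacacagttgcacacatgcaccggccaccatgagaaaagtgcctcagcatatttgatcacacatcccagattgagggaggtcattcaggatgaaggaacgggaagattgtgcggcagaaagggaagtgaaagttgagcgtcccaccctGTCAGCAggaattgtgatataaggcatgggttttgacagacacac
Vsig4: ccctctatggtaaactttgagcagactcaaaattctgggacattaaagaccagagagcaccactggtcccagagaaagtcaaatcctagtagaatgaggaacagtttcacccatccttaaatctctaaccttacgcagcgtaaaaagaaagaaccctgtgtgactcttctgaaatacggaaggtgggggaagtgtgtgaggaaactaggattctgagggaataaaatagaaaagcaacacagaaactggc
Motifs of 5 factor families known from macrophages were searched on both strands of the 8 windows and of 32851 RefSeq promoters of the same length. PU.1 (GAGGAAGT) was in 2.44% of all promoters and, among the markers, in C1qc, 195 bases before the start in RefSeq; 151 bases of that window lie inside the gene of the files, and the match lies 44 bases before the start given there. The MAF element (TGCTGAC) was in 3.81% and, reversed as GTCAGCA, 45 bases before the start of Timd4. The RBPJ motif (TGGGAA) was in 21.59% of promoters and, among the markers, in Marco (reversed as TTCCCA, 24 bases before the start) and Clec4f (35 bases before the start in RefSeq, but among the 71 bases of that window that lie inside the gene of the files). The E-box of MITF and TFEC (CACGTG, in 6.02%) and AP-1 (TGACTCA, in 4.46%) had no match in the 8 windows. A MAF element can share the letters TGAC with an AP-1 site; no such overlap occurred in the markers. GC content ran from 36.8% (Cd163) to 57.2% (Clec4f) with a median of 48.8%, against 52.4% for all promoters. These letter matches are a description of the windows and were tested against nothing in the libraries.

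Total counts ran from 17413153 to 26760570 per library, and levels are given in CPM, the counts of a gene scaled to a common library total, of which 1 stood for 17.4 to 26.8 counts. A count of 0 allows up to 3 counts, or 0.112 to 0.172 CPM. Such limits cover counting error only. In 11 libraries 12 hepatocyte genes summed to between 84315 and 110589 CPM. Aged diploid replicate 2 stood apart at 28581 CPM, beside 24252 CPM of the 10 markers and 21217 CPM of 14 genes shared by macrophages and other myeloid cells, with a scaling factor (TMM, trimmed mean of M-values) of 1.69 against 0.837 to 1.14 in the others. The fits of the markers and of the gene lists that use the aged diploid group are given with and without it. In bulk libraries, fewer macrophages and less RNA per macrophage cannot be told apart.

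By group median, transcripts of all 10 markers peaked in the aged diploid libraries, followed by the young diploid libraries and then by both polyploid groups. Together they took 0.351%, 2.43% and 0.0731% of all counts in aged diploid replicates 1, 2 and 3, and 0.0414% to 0.0509% in the young diploid libraries. In the polyploid libraries they took 0.00281% to 0.0117% (young) and 0.00137% to 0.0101% (aged). The 3 young diploid libraries lay within a narrow band, at 414 to 509 CPM of marker RNA in all, whereas the aged diploid libraries ranged from 731 to 24252 CPM.

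**Figure D1:**
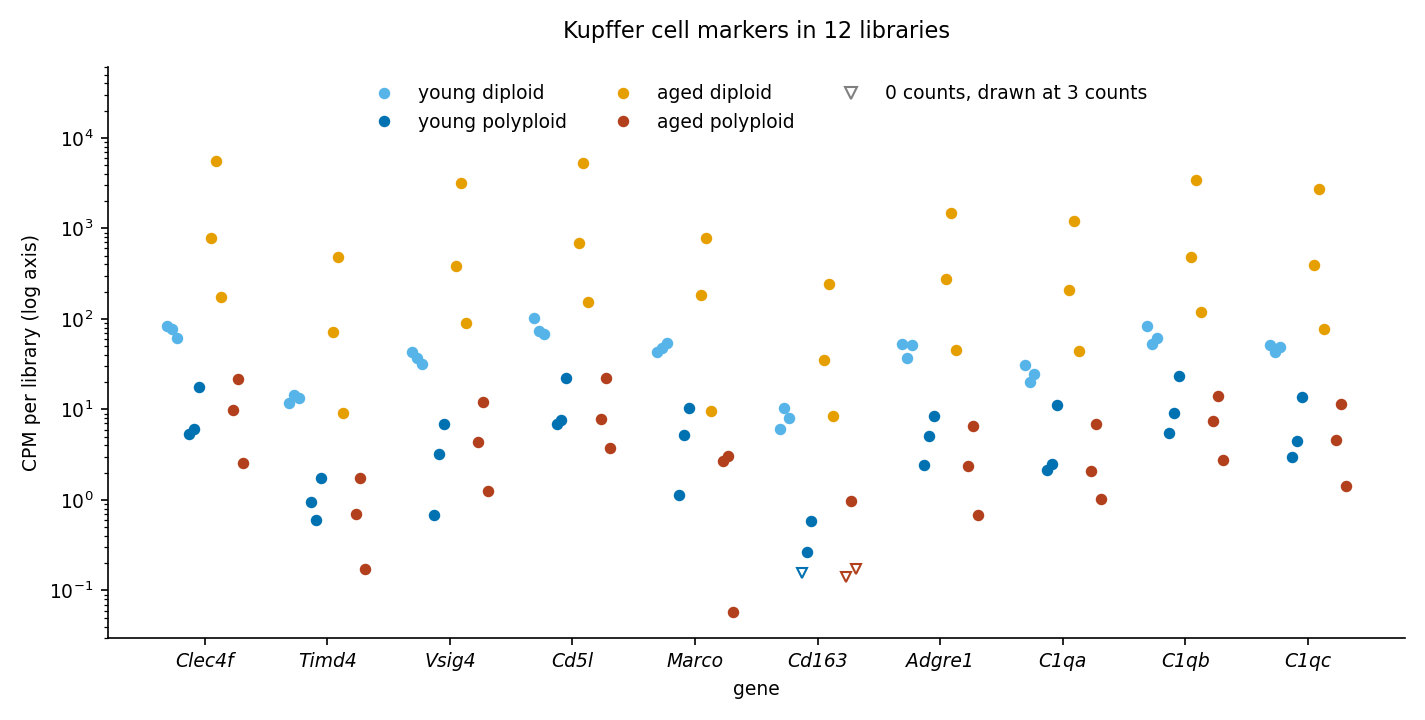
Level of each of the 10 markers in each of the 12 libraries, in CPM on a log axis; 1 point is 1 library, colours are the 4 groups, and open triangles mark 0 counts, drawn at the level of 3 counts. For every gene the diploid points of an age sit above the polyploid points of that age; the aged diploid points spread from 174 to 5533 CPM for Clec4f, against 61.3 to 84.4 CPM in young diploid libraries.

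Of the uptake receptors, the lectin gene Clec4f was at 84.4, 76.8 and 61.3 CPM in young diploid replicates 1, 2 and 3, and at 5.37, 6.13 and 17.7 CPM in the young polyploid libraries of the same mice. The aged mice had 775, 5533 and 174 CPM in their diploid libraries and 9.9, 21.6 and 2.58 CPM in their polyploid libraries. The diploid libraries were above the polyploid ones at both ages, the aged diploid libraries were above all young ones, and the polyploid groups overlapped.
The young diploid libraries held 43.6, 48.3 and 53.6 CPM of Marco, and the aged ones 182, 792 and 9.5 CPM. Its polyploid levels were 1.15, 5.27 and 10.5 CPM in young and 2.67, 3.09 and 0.0574 CPM in aged mice, the last of these being 1 count. Aged diploid replicate 3 thus lay below all 3 young diploid libraries for Marco, while for Clec4f it lay above them.
Levels of Timd4 were 11.7, 14.5 and 13.3 CPM in the young and 71.1, 480 and 9.09 CPM in the aged diploid fraction, with the same overlap through replicate 3. In polyploid libraries it was at 0.938, 0.602 and 1.76 CPM (young) and 0.704, 1.75 and 0.172 CPM (aged). Cd163, the haemoglobin receptor, was the marker of lowest level: 6.14, 10.3 and 8.03 CPM in the young and 34.9, 245 and 8.47 CPM in the aged diploid fraction. It had 0 counts in young polyploid replicate 1 and in aged polyploid replicates 1 and 3, and 7, 12 and 19 counts in the other 3 polyploid libraries.

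Of the complement genes, Vsig4 had 43.0, 37.0 and 31.8 CPM in the young and 389, 3179 and 90.6 CPM in the aged diploid fraction. Its levels were 0.677, 3.20 and 6.89 CPM in the young and 4.36, 12.2 and 1.26 CPM in the aged polyploid fraction. As for Clec4f, no aged diploid library reached down to the young diploid range.
C1qb, the C1q chain with the highest level per length, had 83.5, 52.7 and 62.3 CPM in the young and 484, 3383 and 119 CPM in the aged diploid fraction. Its polyploid levels were 5.47, 9.07 and 23.4 CPM in young and 7.41, 14.2 and 2.76 CPM in aged mice. C1qa and C1qc ran in parallel at lower levels: C1qa ran from 20.2 to 31.1 CPM in the young and from 44.5 to 1201 CPM in the aged diploid fraction, and C1qc from 43.0 to 51.8 CPM and from 77.2 to 2740 CPM. The ranges of the 2 diploid groups did not meet for any of the 3 chains.
Cd5l, the secreted member, had 101, 74.5 and 68.2 CPM in the young and 695, 5237 and 153 CPM in the aged diploid fraction. Its polyploid levels were 6.93, 7.60 and 22.2 CPM in young and 7.93, 22.0 and 3.73 CPM in aged mice, with the diploid libraries parted by age and the polyploid ones not. Adgre1 ranged from 37.0 to 52.2 CPM in young diploid and from 45.9 to 1462 CPM in aged diploid libraries, where its lowest value lay inside the young range. In polyploid libraries it ranged from 2.45 to 8.5 CPM (young) and from 0.689 to 6.49 CPM (aged).

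Levels of different genes were compared per base of transcript, as each marker's share of the summed per-length level of the 10. C1qb ranked first in all 12 libraries, with 21.3% to 32.0% of the sum, and Cd163 ranked last in all 12, with 0% to 0.83%. Clec4f held 10.5% to 13.6% in young diploid and 15.8% to 16.6% in aged diploid libraries, ranges that did not meet. Marco held 7.77% to 11.7% in young diploid and 4.76%, 2.99% and 1.16% in aged diploid libraries. Cd5l took 14.1% to 17.1% and 17.2% to 18.7% in the same groups.

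**Figure D2:**
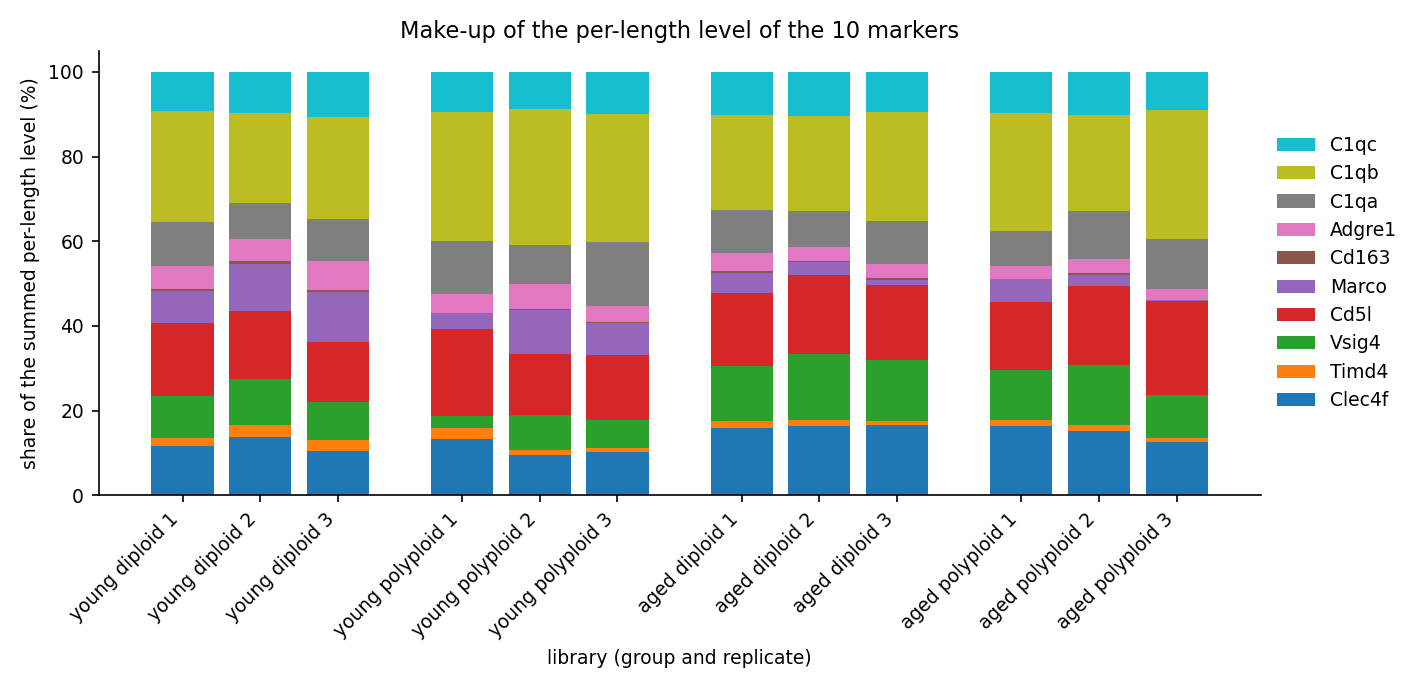
Share of each marker in the summed per-length level of the 10 markers (percent, bars add to 100) for each of the 12 libraries, grouped by age and fraction. C1qb is the widest band throughout; the Marco band is 7.77% to 11.7% in young diploid libraries and 1.16% to 4.76% in aged diploid libraries.

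The comparison of polyploid with diploid cells in young mice asks how much marker RNA each fraction of a young liver carried. In each of the 3 young mice all 10 markers were higher in the diploid than in the polyploid library. The summed level was 18.1 times as high in the diploid library of mouse 1, 9.39 times in mouse 2 and 3.63 times in mouse 3. The polyploid library of mouse 3 held 116 CPM of marker RNA, against 28.1 and 44.1 CPM in the other 2, while its diploid library (423 CPM) lay between theirs. The same polyploid library held 113 CPM of 12 endothelial genes, against 47.4 and 62.7 CPM in the other 2. All 10 markers were lower in all 3 polyploid than in all 3 diploid libraries, as were 25.9% of the 14061 genes tested.
In the fit over all 12 libraries the log2 fold changes ran from -2.09 for C1qa to -4.64 for Cd163, with a median of -2.84 against -0.06 for all genes. None of the 10 passed the quasi-likelihood F test of edgeR after adjustment by the Benjamini-Hochberg method (adjusted p from 0.393 to 0.394; unadjusted p from 0.00337 for Cd163 to 0.0431 for C1qa), in which 0% of all genes passed as lower. DESeq2 called 1 of the 10, Timd4 (adjusted p = 0.0401), and 0.465% of genes as lower.
The number of markers called differed between settings, and the reason was not tested. With the young groups alone all 10 were called lower (edgeR adjusted p from 0.0068 to 0.0399), where 6.36% of genes were. With the mouse as a block 4 were called, where 0.533% of genes were: Timd4 fell by 3.49 on the log2 scale (SE 0.385, edgeR adjusted p = 0.0188), Cd163 by 4.76 (SE 0.641, 0.0317), Adgre1 by 3.08 (SE 0.401, 0.0317) and Marco by 3.31 (SE 0.534, 0.0472). The other 6 had edgeR adjusted p from 0.0556 (Clec4f) to 0.0811 (C1qb). Blocked and without both fractions of aged mouse 2, all 10 were called (edgeR adjusted p from 0.00153 to 0.00848), where 11.1% of genes were called lower.

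In aged mice all 10 markers passed in the same comparison. The summed level was 83.5, 241 and 53.3 times as high in the diploid as in the polyploid library of mice 1, 2 and 3. For Clec4f the ratio within a mouse was 78.3, 256 and 67.4, and for C1qb it was 65.3, 238 and 43.3. For Cd163 it was at least 248 in mouse 1 and at least 49.2 in mouse 3, set against 3 counts in the polyploid library, and 250 in mouse 2.
The groups did not overlap for any of the 10 markers, as for 13.6% of genes lower in polyploid cells. All 10 were called lower by the edgeR test (Benjamini-Hochberg adjusted p from 0.00678 to 0.00948), against 9.33% of the 14061 genes. The median log2 fold change was -6.92, against 0.02 for all genes. On the log2 scale Clec4f changed by -6.95 (SE 1.14), Timd4 by -7.07 (SE 1.15), Vsig4 by -7.06 (SE 1.27), Cd5l by -6.87 (SE 1.13), Marco by -6.78 (SE 1.39), Adgre1 by -6.95 (SE 1.09) and C1qb by -6.72 (SE 1.07). The 10 fitted values lay between -7.55 and -6.58, closer together than the smallest of their SEs.
Without aged diploid replicate 2 the median was -5.17 and all 10 were still called (edgeR adjusted p from 0.00612 to 0.0174), where 5.51% of genes were; with the mouse as a block all 10 were called at a median of -6.50, where 12.2% of genes were. None was called without aged polyploid replicate 1 (adjusted p from 0.0526 to 0.0562) or replicate 3 (0.0532 to 0.0545), with the aged groups alone (0.0615 to 0.0701), or without aged diploid replicates 1 and 2 (0.0809 to 0.697, median -3.85); without aged polyploid replicate 2, Cd163 was at 0 in the whole group and its fitted value of -13.33 is no bound.

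Endothelial and stellate cell genes moved with the markers, and bile duct cell genes did so less. Of 7 bile duct cell genes 2 were tested, with 0 called in aged polyploid against diploid cells, against 9.33% of genes. Their median was -1.38, and -0.58 without aged diploid replicate 2. In aged mice 12 endothelial genes summed to 21, 65.4 and 5.01 times as much in the diploid as in the polyploid library of mice 1, 2 and 3, and 11 stellate cell and fibroblast genes to 48.0, 175 and 19.6 times. In young mice the endothelial ratios were 2.57, 2.13 and 1.16 and the stellate ratios 3.56, 1.80 and 1.13, below the marker ratios of the same mice. By the edgeR test all 12 endothelial genes and all 10 stellate genes tested were called lower in aged polyploid cells, with medians of -4.83 and -5.67, and 0 of 12 hepatocyte genes were, against 9.33% of all genes. Without aged diploid replicate 2 the medians were -3.85 and -4.40, with 12 of 12 and 9 of 10 called, against 5.51% of genes. Endothelial genes ranged from 122 to 133 CPM in young diploid, 196 to 4825 CPM in aged diploid, 47.4 to 113 CPM in young polyploid and 39.1 to 73.8 CPM in aged polyploid libraries. Stellate genes ranged from 26.4 to 50.8, 201 to 5079, 14.3 to 39.4 and 10.3 to 29 CPM in the same order, with Col1a1 at 0 counts in both polyploid groups. Among them Dcn, the proteoglycan decorin, ranged from 92.1 to 2599 CPM in aged diploid and from 3.85 to 13 CPM in aged polyploid libraries, and the endothelial lectin Clec4g from 53.8 to 1465 CPM and from 14 to 20.7 CPM. Hepatocyte genes gave ratios of 1.07, 1.05 and 1.13 in young mice and 0.998, 0.296 and 1.22 in aged mice. How far carry-over of other cells sets the marker levels was not tested.

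**Figure D3:**
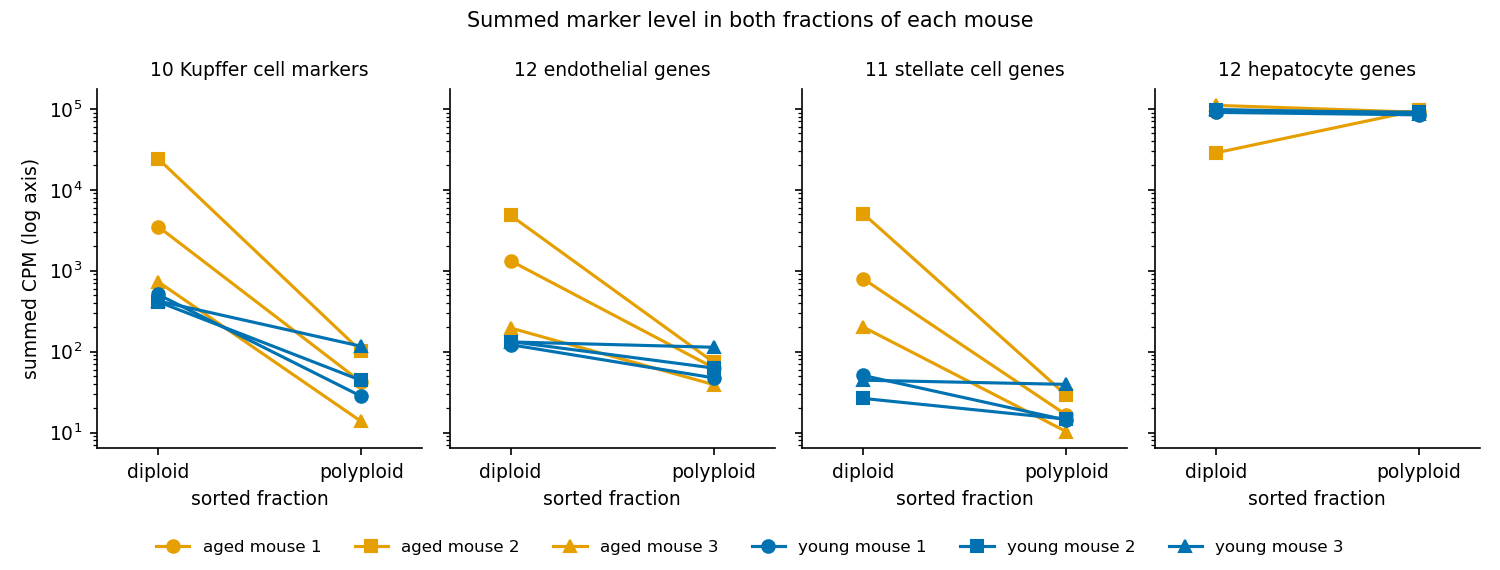
Summed CPM (log axis) of the 10 Kupffer cell markers, 12 endothelial, 11 stellate cell and 12 hepatocyte genes in the diploid and polyploid library of each of 6 mice; a line joins the libraries of 1 mouse. The marker lines fall in all 6 mice, from 24252 to 101 CPM in aged mouse 2 and from 423 to 116 CPM in young mouse 3; the hepatocyte lines are nearly flat except in aged mouse 2.

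The comparison of aged with young diploid cells asks how the marker content of that fraction differed with age. Clec4f rose by 4.18 on the log2 scale (SE 1.0) and Cd5l by 3.95 (SE 0.981), both with a Benjamini-Hochberg adjusted p of 0.0492 in the edgeR test. They were the 2 of 10 called, against 3.76% of genes called higher. The other 8 had positive values just short of the threshold or further from it: Vsig4 4.34 (adjusted p = 0.0508), C1qb 3.65 (0.0501), C1qc 3.8 (0.0534), C1qa 3.59 (0.0558), Timd4 3.14 (0.0726), Adgre1 3.00 (0.0759), Cd163 2.88 (0.14) and Marco 2.10 (SE 1.11, 0.331) by the same edgeR test. The median of the 10 was 3.62, against 0.09 for all genes. Genes of other cell types were higher in the same comparison. The edgeR test called 9 of 12 endothelial genes (median 3.41) and 8 of 10 stellate genes (median 4.64). Of 3 B and plasma cell genes tested it called 2 (median 5.87). All of these calls had an edgeR adjusted p of 0.049 or 0.0492, as near the threshold as the 2 marker calls. With RLE scaling 3 and with upper quartile scaling 2 of 14061 genes were called higher, against 528 with TMM. The part of these cell types in the marker result was not tested.
By their CPM, 6 of 10 were higher in all 3 aged than in all 3 young diploid libraries, as were 17.1% of genes: Clec4f, Vsig4, Cd5l, C1qa, C1qb and C1qc. Timd4, Marco, Cd163 and Adgre1 overlapped, in each case through aged diploid replicate 3.
The 2 calls stood at the edge of the threshold. Neither held when any library other than aged diploid replicate 3 was left out (Clec4f adjusted p from 0.0625 to 0.203); without aged diploid replicate 2 Clec4f was at 2.43 and the median of the 10 at 1.99. In that setting 0.0772% of genes were called higher, with 0 of 12 endothelial, 1 of 10 stellate and 0 of 3 B and plasma cell genes (medians 2.22, 3.14 and 3.72). Without replicate 3 there were 9 calls, all but Marco (0.056), where 16.7% of genes were called higher. Without aged diploid replicates 1 and 2 together, the one aged library left gave a median of 0.73 with Marco at -2.37, Timd4 at -0.55 and Adgre1 at -0.05, none called by edgeR (adjusted p = 0.9999).

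Between aged and young polyploid cells no marker was called by edgeR (adjusted p from 0.664 to 0.998, none with an unadjusted p under 0.05) or by DESeq2, while 0.00711% of genes were called lower. The log2 fold changes ran from -1.74 (Marco, SE 1.16) to 0.49 (Vsig4, SE 1.01), with a median of -0.52. The CPM of the 2 groups overlapped for all 10 markers. Clec4f differed by -0.02 (SE 0.892) and Cd163 by -0.02 (SE 1.49), so that changes of several fold in either direction lie within the error of the fit.
The interaction asks whether the difference between the fractions itself differed with age. All 10 values were negative, from -2.90 (Cd163, SE 1.80) to -4.51 (C1qb, SE 1.24), with a median of -4.09 against -0.0045 for all genes. None passed the edgeR test (Benjamini-Hochberg adjusted p from 0.252 to 0.615; 9 of 10 had an unadjusted p under 0.05), and 0% of genes were called lower. DESeq2 called 6 of 10, and 3.38% of genes, as lower. Without aged diploid replicate 2 the median of the 10 was -2.48 and edgeR called none (adjusted p from 0.493 to 0.934); without replicate 3 it was -4.53 with 7 called, where 4.52% of genes were called lower.
With the mouse as a block, the edgeR test called 2, against 1.33% of genes called lower: Timd4 at -3.31 (SE 0.575, adjusted p = 0.0378) and Adgre1 at -3.56 (SE 0.563, adjusted p = 0.0314). The other 8 had edgeR adjusted p from 0.0565 (C1qc) to 0.237 (Cd163). All 10 values lay between -3.75 and -3.01, with a median of -3.47. The same blocked fit called 7 of 12 endothelial, 5 of 10 stellate and 6 of 14 shared macrophage genes lower, with medians of -3.63, -4.59 and -3.47. Blocked and without both fractions of aged mouse 2, edgeR called Adgre1 alone of the 10 (-3.29, SE 0.528, adjusted p = 0.0289), where 0.601% of genes were called lower, and 5, 5 and 4 genes of those lists.

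**Figure D4:**
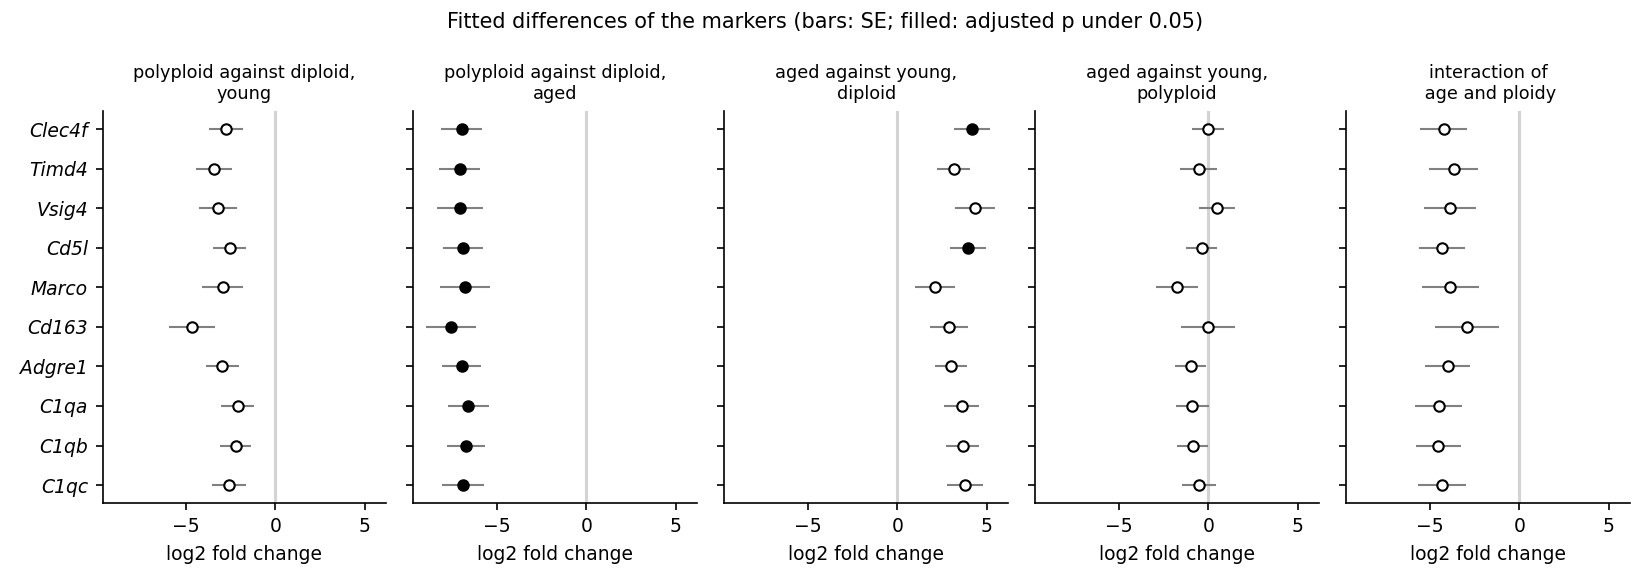
Fitted log2 fold change of each marker (points) with its SE (bars) in 5 comparisons from the edgeR fit over 12 libraries; filled points have an adjusted p under 0.05. All 10 points of the aged polyploid against diploid panel are filled and lie between -7.55 and -6.58, 2 points are filled in the diploid comparison of age, and the polyploid comparison of age straddles 0.

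Because the total amount of marker RNA varied so widely, each marker was also set against the 3 C1q genes in the same library. The reference was the mean of their log2 CPM (a geometric mean), and the ratio does not depend on library scaling. Marco, relative to C1q, was at 0.851, 1.35 and 1.27 in young diploid replicates 1, 2 and 3 and at 0.532, 0.355 and 0.128 in aged diploid libraries. The groups did not overlap, and the means differed by -1.97 on the log2 scale. In young polyploid libraries the ratio of Marco was 0.356, 1.13 and 0.683, and in aged polyploid replicates 1 and 2 it was 0.642 and 0.300.
Timd4 was likewise lower relative to C1q with age in diploid libraries, with young values of 0.229, 0.406 and 0.317 and aged values of 0.207, 0.215 and 0.123 (-0.81 on the log2 scale). Adgre1 was at 1.02, 1.03 and 1.22 against 0.805, 0.655 and 0.618 (-0.66), and Cd163 at 0.120, 0.289 and 0.191 against 0.102, 0.110 and 0.114 (-0.79). For each of these receptors the highest aged value lay below the lowest young value.
Clec4f and Vsig4 went the other way. Clec4f was at 1.65, 2.15 and 1.46 times the C1q mean in young and 2.26, 2.48 and 2.34 times in aged diploid libraries (0.45 on the log2 scale). Vsig4 was at 0.839, 1.03 and 0.755 in young and 1.13, 1.42 and 1.22 in aged diploid libraries (0.53). Cd5l overlapped, with a difference of 0.19.
The 3 C1q chains moved least against one another: each, set against the mean of the other 2, differed between the ages by -0.01 (C1qa), -0.02 (C1qb) and 0.04 (C1qc) on the log2 scale, with overlapping libraries.
A 2-sided exact permutation test, added after the values were seen, gave p = 0.1 for each of the 6 markers that did not overlap, which is the smallest p that 3 against 3 libraries allow, and p = 0.3 for Cd5l. Adjusted over the 7 markers the 6 values were 0.117, so none can pass the threshold in a design of this size. Ratios to C1q were not taken over all genes, so the 6 cannot be set against a share of genes without overlap. Against the mean of the other markers in place of C1q, the directions of the 7 were unchanged, but Cd163 and Adgre1 then overlapped, Cd5l no longer did, and C1qa, C1qb and C1qc stood at 0.33, 0.32 and 0.37, with no overlap for C1qc. A ratio shows that the genes changed unequally, not which of them moved.

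**Figure D5:**
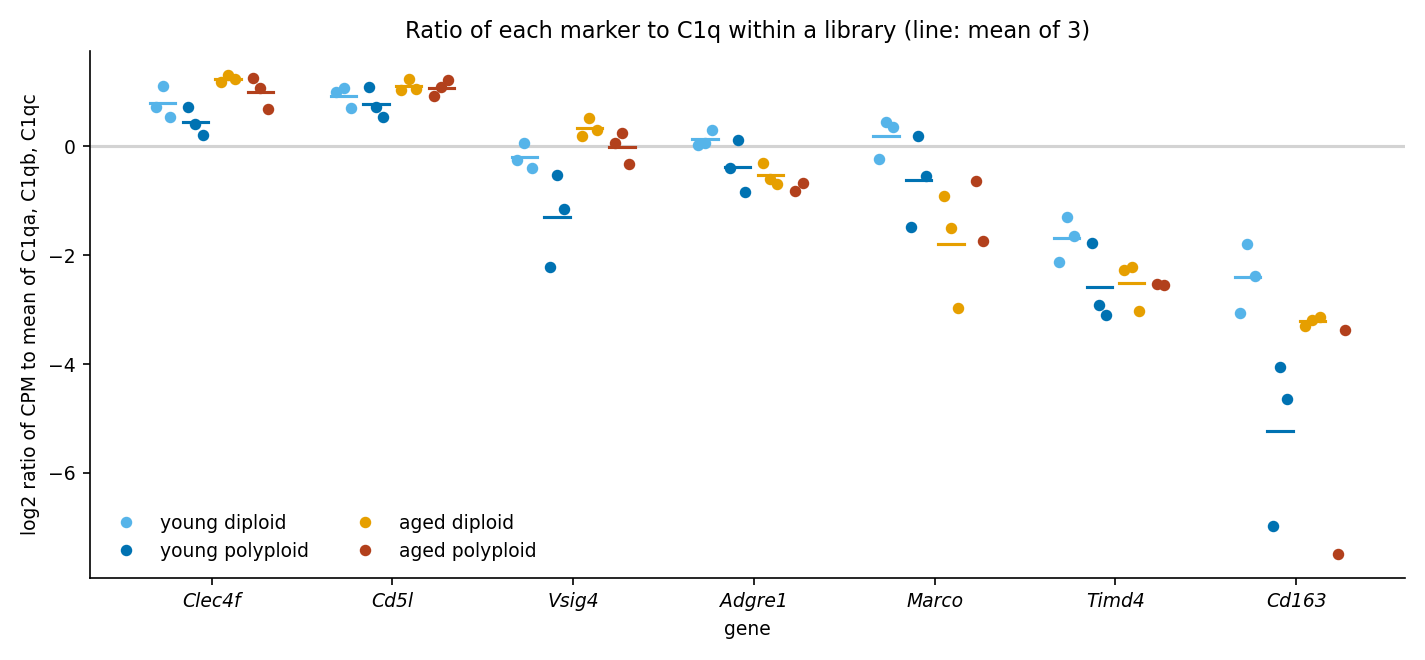
Log2 ratio of the CPM of 7 markers to C1q, the mean log2 CPM of C1qa, C1qb and C1qc, in the same library. Points are libraries by group and short lines are means of 3 libraries. A library is left out where neither the marker nor each of the C1q genes had 20 counts. Cd163 is therefore drawn in young polyploid replicate 1 and aged polyploid replicate 1, where it had 0 counts and the prior of 0.5 counts sets its value. In diploid libraries Marco, Timd4, Adgre1 and Cd163 are lower in aged than in young mice and Clec4f and Vsig4 higher, with no overlap, while Cd5l overlaps.

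Over the 12 libraries the markers followed one another to unequal degrees. Each profile was set on the log2 scale, centred on its own mean, and compared with the mean profile of the 10 by the root mean square difference over the 12 libraries. That mean contains each marker itself, but no gene outside the list. The difference was smallest for C1qc (0.247) and Adgre1 (0.285). It was largest for Vsig4 (0.629), Marco (1.14), with 1 count in 1 library, and Cd163 (1.43), with 0 counts in 3. Outside the list, the 10 genes of 7100 compared (mean of at least 10 CPM) that lay nearest to the mean profile included Cd300ld (0.337), Laptm5 (0.384), Ctss (0.389), Cfp (0.419), Ly86 (0.429), Csf1r (0.452), Fcer1g (0.463), Cd68 (0.482) and Rac2 (0.485). Vsig4, Marco and Cd163 lay farther from the mean profile than these 10 genes. The median of the 7100 was 2.98, and albumin stood at 3.34. Without aged diploid replicate 2, 9 of the 10 nearest genes remained among the 10 nearest, Cd300ld still first (0.351), and Rac2 dropped out (0.501). Csf1r, the receptor for the macrophage growth factor CSF1, had 58.6 ± 15.8 CPM in the young and 1030 ± 1241 CPM in the aged diploid fraction, and 6.13 ± 5.48 and 8.12 ± 7.28 CPM in the polyploid fractions of the same ages (SD, n = 3).

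Other genes of the Kupffer cell programme were counted from a list of 14, of which all were tested. In aged polyploid against diploid cells 12 of 14 were called lower by the edgeR test (median log2 fold change -6.25), against 9.33% of all genes, and in aged against young diploid cells 7 were called higher (median 3.62), against 3.76%. Without aged diploid replicate 2 the counts were 12 (median -4.55, against 5.51% of genes) and 0 (median 1.94, against 0.0772%). In young mice and in the interaction 0 of 14 were called, as were 0 of 14061 genes. With the young groups alone 8 of 13 tested were called lower and 1 higher, where 819 and 707 of 12885 genes were. With the mouse as a block 1 (young) and 2 (interaction) were called lower, against 0.533% and 1.33% of genes. Blocked and without both fractions of aged mouse 2, 9 were lower and 1 higher in young mice, where 1574 and 1516 of 14132 genes were. In the interaction 0 were then called, against 0.601% called lower. Slc40a1, the iron exporter ferroportin, ranged from 210 to 243 CPM in the young and from 361 to 3531 CPM in the aged diploid fraction. In polyploid libraries it ranged from 78.1 to 105 CPM (young) and from 114 to 224 CPM (aged), without the overlap seen for the markers. Fcna, a ficolin of the lectin complement pathway, ranged from 28.1 to 40.8, 68.4 to 2016, 1.88 to 9.23 and 3.16 to 7.675 CPM in the same order.
Of 14 genes shared by macrophages and other myeloid cells, 13 were called lower in aged polyploid cells (median -6.66), against 9.33% of genes. In aged diploid cells 5 were called higher (median 3.79), against 3.76%. Without aged diploid replicate 2 it was 13 (median -4.96) and 0 (median 2.18), against 5.51% and 0.0772%. Lyz2, the lysozyme of myeloid cells, ranged from 152 to 221 CPM in the young and from 295 to 10019 CPM in the aged diploid fraction, and from 14.8 to 73.1 CPM in polyploid libraries. Of 13 genes used for monocytes and macrophages derived from them, 7 were tested. In the same 2 comparisons 4 were lower and 4 higher, and 2 and 0 without aged diploid replicate 2, beside the same shares of all genes. Neutrophil genes, 8 in all, summed to 30.3, 70.9 and 1.97 CPM in aged diploid replicates 1, 2 and 3, and to less than 2 CPM in the other 9 libraries. Of the 2 tested, both were called lower in aged polyploid cells (against 9.33% of genes), and 1 without aged diploid replicate 2 (against 5.51%). Csf3r, the receptor for the granulocyte growth factor, ranged from 1.11 to 48.8 CPM in the aged diploid fraction, while Ly6g, a surface antigen of neutrophils, had 0 counts in all 12 libraries.
Partners of the markers outside macrophages were taken as 12 genes, among them C1ra and C1s1 (the proteases that C1q activates), C3 (whose fragments Vsig4 binds), Hp and Hpx (which carry haemoglobin and haem) and Csf1 and Il34 (the ligands of Csf1r). None of the 12 was called in young mice, between the ages in either fraction, or in the interaction by the edgeR test. Of all 14061 genes 0 were called in young mice and in the interaction. By age 528 were called higher and 24 lower in diploid cells, and 4 and 1 in polyploid cells. By age in diploid cells 3 of the 12 had positive values, with a median of -0.29 for the 12. Among the 3 were Csf1 at 3.00 (SE 0.832, edgeR adjusted p = 0.0594) and Il34 at 4.35 (SE 1.25, 0.0752). Without aged diploid replicate 2, 7 of the 12 had positive values in this comparison, with a median of 0.02. Of these genes 0 were then called, against 0.0772% of genes called higher. In aged polyploid against diploid cells edgeR called 1 of 12, Il34, lower (adjusted p = 0.0118), against 9.33% of genes. Il34 had 0 counts in all 3 aged polyploid libraries. Without aged diploid replicate 2, 1 of the 12 was called lower there, against 5.51% of genes. C3 ranged from 1398 to 11312 CPM in aged diploid and from 5126 to 12584 CPM in aged polyploid libraries. C1s1 and C1ra, named for their role with C1q after their values were seen, differed there by 0.24 (SE 0.448) and 0.45 (SE 0.29) and were not called, while C1qb fell by 6.72 and was.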

How the data were processed

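Sorted hepatocytes of 6 mice gave 12 RNA libraries (SMART-Seq v4 Ultra Low Input kit). The authors deposited raw counts per gene, in the featureCounts layout per the file headers. Trimmomatic 0.36, STAR 2.5.2b, featureCounts (Subread 1.5.2) and the builds GRCm38 and mm10 are named in the submitters' processing notes. Annotation release, strand setting and the unit counted (reads or fragments) were not given in the sources used here. Reads carried no molecular identifiers. Symbols came from GENCODE M21, which named 48970 of 49315 IDs.

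The genes and lists were chosen with earlier results of these data known. CPM was computed from library totals, and per-length levels from the length column. Counts were tested in R 4.3.3 with edgeR 4.0.16 (TMM factors, filterByExpr, glmQLFit with 1 mean per group over 12 libraries, glmQLFTest), adjusted over 14061 genes, with a threshold of 0.05. Log ratios used a prior of 0.5 counts and needed 20 counts of the marker or of each C1q gene in the library. The SE of an edgeR log2 fold change was its absolute value divided by the square root of the F statistic. Groups come from the titles.

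Genes named are the 10 markers, the 10 genes outside them nearest to their mean profile of those averaging 10 CPM or more, up to 2 most abundant genes of a list, defining markers at 0 counts, and albumin. The replicate number was read as the mouse: the series design counts 3 mice per age, and deviations from group means over 9084 genes correlated at 0.35 to 0.554 between fractions of the same number and at -0.586 to -0.0217 between others. Alternatives were RLE, upper quartile or no scaling, no filter, a mean of 5 CPM, DESeq2 1.42.0, the compared groups alone, the mouse as a block, and libraries left out. Chosen after seeing the data were the block without aged mouse 2, another reference for the ratios, the permutation test of the ratios, and the lists and likeness without aged diploid replicate 2. 1 gene among those nearest to the mean profile is not reported here.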

Additional observations from a re-analysis of the deposited data

Results flagged for a closer look

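With the mouse as a block, a test of the interaction itself called 2 of 10 markers, Timd4 and Adgre1, where 1.33% of genes were called lower. Their difference between polyploid and diploid cells was larger in aged than in young mice. For Timd4, the receptor for dying cells, it was larger by a log2 fold change of -3.31 (SE 0.575, edgeR adjusted p = 0.0378), and for Adgre1, the F4/80 antigen, by -3.56 (SE 0.563, edgeR adjusted p = 0.0314). The diploid library was higher for both genes in 6 of 6 mice. For Timd4 the diploid level was 12.5, 24.1 and 7.58 times the polyploid level in young mice and 101 and 274 times in aged mice 1 and 2; aged polyploid replicate 3 held 3 counts of it. For Adgre1 the young mice gave ratios of 21.3, 7.33 and 6.07 and the aged mice 118, 225 and 66.6. Without the block neither gene was called in this comparison, where 0% of genes were called lower. Blocked and without both fractions of aged mouse 2, Adgre1 was called (-3.29, edgeR adjusted p = 0.0289) and Timd4 was not. In that setting 0.601% of genes were called lower. The blocked interaction with all mice was negative for all 10 markers, from -3.75 to -3.01 with a median of -3.47. Timd4 and Adgre1 lay inside that range, so they differ from the others by the threshold and not by size. In the same fit 7 of 12 endothelial, 5 of 10 stellate and 6 of 14 shared macrophage genes were called in the same direction, against 1.33% of genes.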

How the results depend on the processing

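Counts of the 10 markers called are given against 0 (ploidy, young), 10 (ploidy, aged), 2 (age, diploid), 0 (age, polyploid) and 0 (interaction). In the same order 0% lower, 9.33% lower, 3.76% higher, 0.00711% lower and 0% lower of all genes were called. For ploidy in young mice 8 were called with no filter, where 140 of 27518 genes were called lower. There was 1 by DESeq2 (64 of 13772 genes lower) and 10 with the compared groups alone (819 of 12885). For ploidy in aged mice 0 were called with the compared groups alone, as were 0 of 13343 genes. Leaving out single libraries gave 0 to 10 of the markers and 0 to 2693 genes lower. Without aged diploid replicates 1 and 2 the median of the 10 was -3.85. For age in diploid cells 0 were called with RLE scaling (3 of 14061 genes higher) or upper quartile scaling (2). The same held for a mean CPM filter (4 of 9084) and the compared groups alone (0 of 13597). There were 6 with no scaling factors (753 of 14061 genes higher), 9 with no filter (1901 of 27518) and 8 by DESeq2 (1500 of 14045). Leaving out single libraries gave 0 to 9 of the markers and 0 to 2531 genes higher. Without aged diploid replicates 1 and 2 the median of the 10 was 0.73. For the interaction 9 were called with no filter (683 of 27518 genes lower) and 6 by DESeq2 (465 of 13772). Leaving out single libraries gave 0 to 7 of the markers and 0 to 684 genes lower. For age in polyploid cells every setting run gave 0. The most genes called there were 118 higher and 34 lower of 14045, by DESeq2. The mouse as a replicate block, which pairs the fractions, gave 4 (ploidy, young), 10 (ploidy, aged) and 2 (interaction). Of all genes 0.533%, 12.2% and 1.33% were called lower there. Without aged mouse 2 the block gave 10, 10 and 1, where 1574, 1255 and 85 of 14132 genes were called lower. Why the counts moved was not tested.

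Signs changed as follows on the log2 scale. With no scaling factors, age in polyploid cells gave 0.23 for Clec4f and 0.19 for Cd163; that setting moved the median of all genes by -0.17 (ploidy, young), -0.38 (ploidy, aged), 0.38 (age, diploid), 0.16 (age, polyploid) and -0.21 (interaction). Without aged diploid replicates 1 and 2, age in diploid cells gave -0.55 for Timd4, -2.37 for Marco and -0.052 for Adgre1, and the interaction 0.024 for Timd4 and 0.63 for Marco. Leaving out single libraries, age in polyploid cells ranged from -0.81 to 0.71 for Clec4f, -0.49 to 1.35 for Vsig4, -1.21 to 0.36 for Cd5l, -5.95 to 0.90 for Cd163, -1.87 to 0.26 for C1qa and -1.36 to 0.39 for C1qc. Against the other markers, the ratios of C1qa and C1qb between the ages were 0.33 and 0.32, against -0.01 and -0.02 relative to C1q. No sign changed in either comparison of ploidy. Where 1 library of a group was left, it was assumed to vary like the others. Below about 20 counts, as for Cd163 and aged polyploid Marco and Timd4, depth limits any fold.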
